A study of Mus musculus with 2 samples.

Results

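Müller glia (MG), the radial glial cells of the retina, take up transmitter and exchange metabolites with neurons, and 10 genes for this work were followed here across retinal cell types. They were taken as a fixed list from the 25778 genes of the count table and were Glul, Slc1a3, Slc1a2, Slc1a7, Slc38a3, Slc16a1, Slc6a6, Slc4a4, Gpt2 and Phgdh, all of which had counts. The retinas came from 1 mouse of each genotype at 30 days of age, Ptbp1-Ctrl (Chx10Cre) and Ptbp1-KO (its genotype Chx10-Cre;Ptbp1lox/lox), and the RNA of single cells from whole papain-dissociated retina was sequenced in droplets. Both animals had the Chx10-Cre transgene, whose Cre is active in the progenitors of the retina, so neurons and MG alike come from the targeted lineage. The lox sites flank the promoter and the first exon of Ptbp1, which encodes a splicing regulator of RNA. The study asked with these libraries whether loss of Ptbp1 in progenitors alters gene expression in the mature retina.

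There was 1 library per genotype, so no difference below has a replicate check and every one compares these 2 libraries. The study's methods describe female mice, whereas the Y-linked genes Ddx3y, Eif2s3y, Kdm5d and Uty had between 1413 and 7085 UMIs (unique molecular identifiers, 1 per captured RNA molecule) per library and Xist had 5 and 6. The libraries held 16421 Ptbp1-Ctrl and 14522 Ptbp1-KO cells with 32758836 and 35328593 UMIs, and 63 cell barcodes occurred in both. MG numbered 1720 and 1184 cells with 5906017 and 5085747 UMIs and a median of 3333 and 4178 UMIs per cell. Ptbp1 itself had 294 UMIs in control MG and 6 in knockout MG. The unit of every level is CPM, a gene's UMIs in 1000000 UMIs when all cells of one type in one library are summed, with exact Poisson intervals at 95%. Ratios are log2 of the Ptbp1-KO over the Ptbp1-Ctrl level with exact conditional intervals. A difference is called beyond counting error where its interval leaves out 0, and every interval in the text reflects counting error alone, with nothing for animals or libraries.

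Glutamate released by photoreceptors and bipolar cells is cleared by transporters of the Slc1 family, and in MG glutamine synthetase then converts it with ammonia to glutamine, which glia export and neurons use to make transmitter again. MG also exchange lactate, bicarbonate and taurine with their neighbours, and make serine, the precursor of glycine and D-serine. Of the 10 genes, Slc1a3 (GLAST), Slc1a2 (GLT-1) and Slc1a7 (EAAT5) are glutamate transporters, Glul encodes glutamine synthetase, and Gpt2 the mitochondrial alanine aminotransferase. Slc38a3 (SNAT3) carries glutamine, Slc16a1 (MCT1) monocarboxylates such as lactate, Slc6a6 (TauT) taurine and Slc4a4 (NBCe1) sodium bicarbonate. Phgdh catalyses the first step of serine synthesis.

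The cell type names were those deposited. Markers that are not among the 10 genes had their highest level in the type they mark in both libraries for 6 of 6 rod, 6 of 6 cone, 7 of 7 bipolar cell (BC), 5 of 6 amacrine cell (AC) and 6 of 7 MG markers, the exceptions being Tfap2b and Vim, which were highest in horizontal cells. Markers of other glia and of vascular cells, which have no name in the cell table, were counted in MG as well. The 5 astrocyte markers summed to 36.2 and 44.6 CPM, Gfap among them at 4.40 and 6.88 CPM and Pax2 at 0.169 and 0.197 CPM. The 5 microglia markers summed to 34.0 and 40.1 CPM, mostly P2ry12 at 28.8 and 31.7 CPM, with C1qb and Tmem119 at 0 in both libraries. The 5 endothelial markers summed to 1081 and 1058 CPM, of which Flt1 made 876 and 812 CPM, while Cldn5 and Cdh5 stayed at or below 1.52 CPM. The 3 pericyte markers summed to 58.1 and 61.0 CPM, mostly Pdgfrb at 53.2 and 53.1 CPM. The part of such cells in the MG levels was not tested. RNA of rods was present in every other type. The 6 rod markers were found in MG at a median of 16.1% of their rod level in Ptbp1-Ctrl and 14.1% in Ptbp1-KO.

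The label of the list did not hold for all of its members. Under the plain totals 5 of the 10 genes, Glul, Slc1a3, Slc38a3, Slc16a1 and Phgdh, had their highest level in MG in both libraries, and 3 of them, Glul, Slc1a3 and Phgdh, kept it under every alternative tried. Slc1a2 was highest in cones, Slc6a6 in rods and cones, and Slc4a4 in BC. Slc1a7 had 132 to 138 CPM in cones and 115 to 131 CPM in rods and BC. Gpt2 was low in each of the 5 types, at 8.55 CPM or less. With the rod share of each level subtracted, Slc38a3 and Slc16a1 were no longer highest in MG in both libraries.

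**Figure D1:**
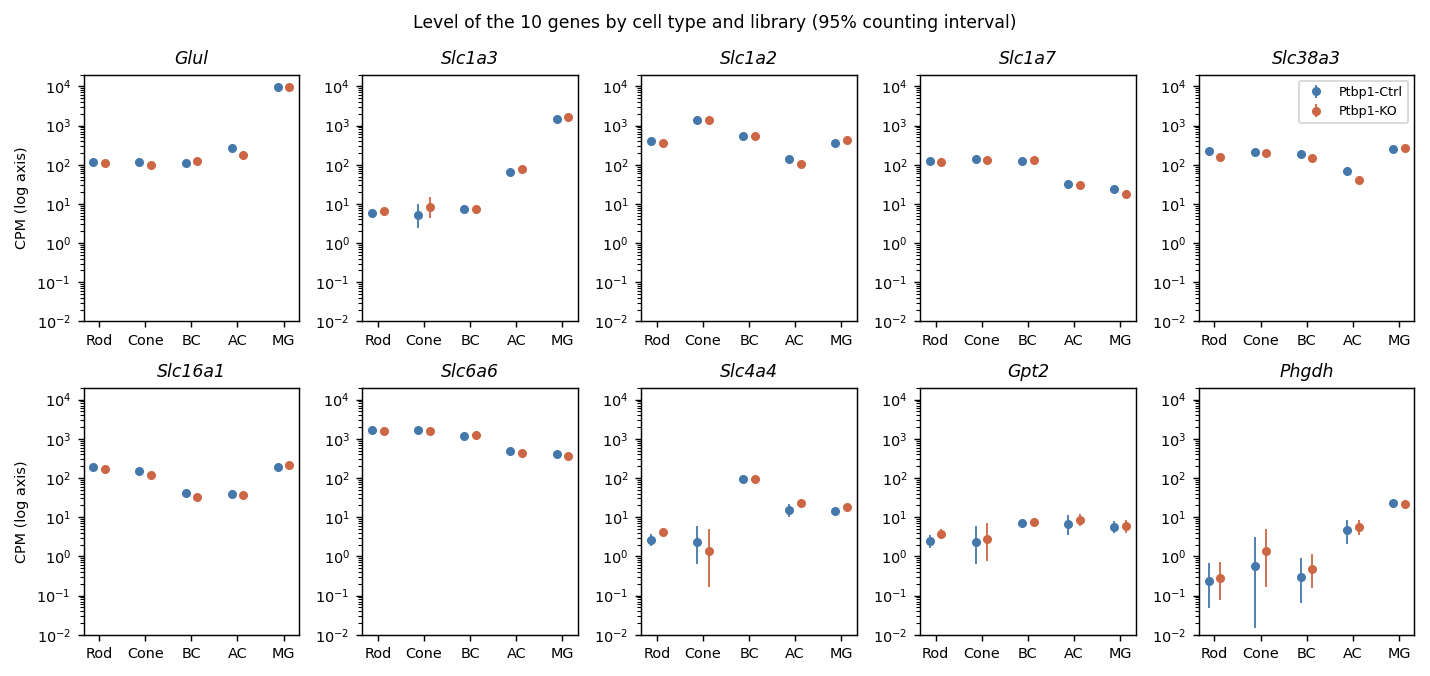
Level of each of the 10 genes (vertical axis, CPM, log scale) in rods, cones, BC, AC and MG (horizontal axis) of the Ptbp1-Ctrl and the Ptbp1-KO library, 1 point per library with its 95% Poisson interval. Glul stood at 9602 and 9869 CPM in MG and at 261 CPM or less elsewhere. Slc6a6 was highest in rods and cones, Slc1a2 in cones and Slc4a4 in BC.

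Glul had a far higher level in MG than in any other type compared. On mm10 it lies on chromosome 1 from 153899944 to 153909723 on the plus strand, where Teddm2 on the other strand and a microRNA gene overlap it. In MG its level was 9602 CPM (9523 to 9681) in Ptbp1-Ctrl and 9869 CPM (9782 to 9955) in Ptbp1-KO. AC followed with 261 and 181 CPM, so that MG exceeded AC 36.8-fold (33.7 to 40.2) and 54.5-fold (50.6 to 58.9). Cones, rods and BC held between 101 and 124 CPM, and in Ptbp1-Ctrl the neighbours in that order did not differ beyond counting error. With each cell thinned to 1000 UMIs, 97.1% of Ptbp1-Ctrl MG (1614 of 1663) and 97.1% of Ptbp1-KO MG (1139 of 1173) had a Glul UMI, at a median of 9 UMIs per thinned cell in both libraries. Rods, which should lack the enzyme, had a UMI in 9.76% and 9.59% of thinned cells, against 12.8% and 14.5% unthinned at median depths of 1088 and 1288 UMIs. Thinning left out 57 and 11 MG and 4155 and 3126 rods with fewer UMIs.

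Slc1a3 occupies bases 8634124 to 8710764 of chromosome 15, minus strand, and Gm37310 overlaps it. Its MG level was 1451 CPM (1420 to 1482) in Ptbp1-Ctrl and 1661 CPM (1625 to 1696) in Ptbp1-KO, 22.0-fold (18.5 to 26.4) and 21.7-fold (19.3 to 24.5) above AC at 65.9 and 76.5 CPM. Rods, cones and BC had 5.16 to 8.42 CPM and could not be ordered. At 1000 UMIs per cell, 74.9% of Ptbp1-Ctrl MG (72.8 to 77.0) and 79.5% of Ptbp1-KO MG (77.0 to 81.7) had an Slc1a3 UMI, against 0.508% and 0.632% of rods. Unthinned, the MG shares were 95.1% and 98.1%.

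The 250 bases before the annotated start of these genes are shown because they are the members with the largest excess in MG, read 5′ to 3′ from RefSeq on GRCm38.p6, whose coordinates match mm10. Capitals mark the letters CCAAT or ATTGG (the CCAAT box on either strand) and TATAAA or TTTATA (the TATA box).
Glul, chr1:153899679-153899928, plus strand: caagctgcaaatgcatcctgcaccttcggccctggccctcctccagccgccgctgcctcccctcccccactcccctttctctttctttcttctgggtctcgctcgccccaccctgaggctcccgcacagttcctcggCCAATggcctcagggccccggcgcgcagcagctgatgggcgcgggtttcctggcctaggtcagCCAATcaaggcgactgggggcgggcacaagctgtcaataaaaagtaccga
Slc1a3, chr15:8710808-8711057, minus strand: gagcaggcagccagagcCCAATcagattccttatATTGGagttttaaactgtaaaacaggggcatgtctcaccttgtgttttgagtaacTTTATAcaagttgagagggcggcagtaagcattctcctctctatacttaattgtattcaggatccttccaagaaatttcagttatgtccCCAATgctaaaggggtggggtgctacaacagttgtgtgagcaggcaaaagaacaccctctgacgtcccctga
The Glul window held 64.8% G and C and 2 CCAAT boxes, the nearer of which began 50 bases before the start. The Slc1a3 window held 44.8% G and C, 3 CCAAT boxes and 1 TATA box. Over 32851 mouse promoters of this length, 33.8% held a CCAAT box and 12.4% a TATA box. The letters CTTTGT (SOX core), TAATTA (LIM homeobox core), TTGGCA (NFI) and TAATCC (CRX and OTX core), searched on both strands, were in no window of the 8 members with an entry, which draws nothing about these factors. Promoters of Slc38a3 and Slc6a6 were not in the table.

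Phgdh (chromosome 3, 98313170 to 98339990, minus strand) was the other gene highest in MG under every alternative, at far fewer UMIs. MG held 136 UMIs or 23.0 CPM (19.3 to 27.2) in Ptbp1-Ctrl and 109 UMIs or 21.4 CPM (17.6 to 25.9) in Ptbp1-KO. AC had 4.60 and 5.70 CPM from 9 and 22 UMIs, and cones, rods and BC had 1 to 5 UMIs per library. Nearly all AC UMIs of Phgdh, 9 of 9 and 18 of 22, lay in the deposited cluster 6.

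The Glul and Slc1a3 levels in each neuronal type, as a percent of their MG level, were set beside those of the 7 MG markers that are not members. In rods the lowest marker stood at 0.556% in Ptbp1-Ctrl and 0.472% in Ptbp1-KO and the median marker at 1.25% and 1.16%. Glul, at 1.19% and 1.12%, was close to that median, and Slc1a3, at 0.412% (0.326 to 0.515) and 0.399% (0.323 to 0.488), lay below the lowest marker, although the Ptbp1-KO interval held that marker's value. In BC, Slc1a3 at 0.521% and 0.435% was just above the lowest marker at 0.517% and 0.417%. In cones it stood at 0.356% and 0.507%, beside a lowest marker at 0.197% and 0.516%. Glul per Slc1a3 UMI was 6.62 and 5.94 in MG and 19.1 (15.2 to 24.2) and 16.7 (13.6 to 20.7) in rods. In AC it was 3.96 (3.26 to 4.84) and 2.37 (2.06 to 2.72), below the MG value. The part of MG RNA in the neuronal levels was not tested.

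**Figure D2:**
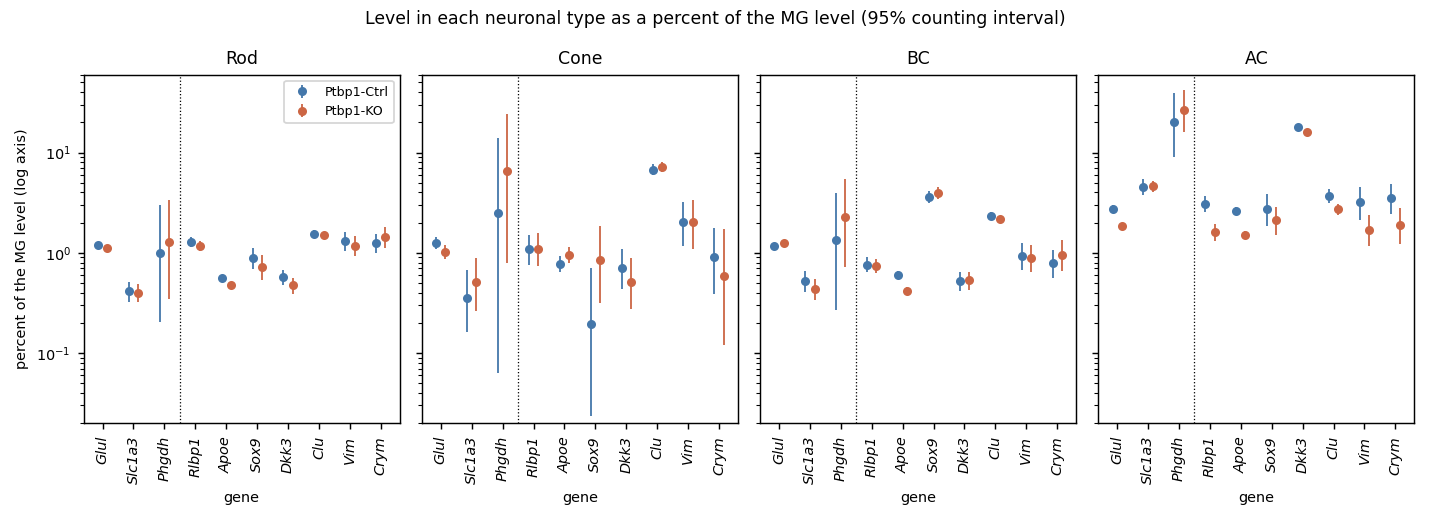
Level in rods, cones, BC and AC as a percent of the MG level of the same library (vertical axis, log scale, 95% interval) for Glul, Slc1a3 and Phgdh (left of the dotted line) and 7 MG markers (right of it). In AC, Slc1a3 stood at 4.55% and 4.61% of its MG level while the median MG marker stood at 3.18% and 1.89%.

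The Slc1a3 RNA of AC lay largely in 1 deposited cluster. Cluster 14, with 223 and 214 cells, had 155 CPM (127 to 188) in Ptbp1-Ctrl and 222 CPM (194 to 254) in Ptbp1-KO, against 28.2 and 39.5 CPM in AC of cluster 6 and 2.30 and 4.13 CPM in cluster 15. MG markers were higher in cluster 14 too, with Apoe at 486 and 381 CPM against 89.2 and 51.0 CPM in cluster 6. Rlbp1 stood at 110 and 77.5 CPM against 41.1 and 13.5 CPM. Both clusters 14 and 15 were high in Slc6a9, the glycine transporter of glycinergic AC, at 864 to 1289 CPM. Gad1, which makes GABA, had no UMI in cluster 14. Thinned to 1000 UMIs, 9.55% of cluster 14 cells (6.01 to 14.2) in Ptbp1-Ctrl and 19.6% (14.5 to 25.6) in Ptbp1-KO had an Slc1a3 UMI, against 0.649% and 1.20% in cluster 15 of the same libraries. Unthinned, 57 of 223 and 95 of 214 cells of cluster 14 had one, at median depths of 2792 and 4458.5 UMIs. Glul in cluster 14 was distributed otherwise. There 9 and 7 cells with 12 or more UMIs held 81.5% and 69.2% of its UMIs. Without the 10% of all AC with most MG marker UMIs, an alternative chosen after the data were seen, Glul in cluster 14 went from 500 to 88.7 CPM in Ptbp1-Ctrl and from 369 to 81.2 CPM in Ptbp1-KO, while Slc1a3 kept 92.1 and 178 CPM.

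Of the other glutamate transporters, Slc1a2 was highest in cones, followed by BC. Slc1a7 was higher in photoreceptors and BC than in AC and MG. Slc1a2 lies on chromosome 2 from 102658659 to 102790784 on the plus strand and has an antisense gene, Gm13872. Its cone level was 1345 CPM (1292 to 1401) in Ptbp1-Ctrl and 1358 CPM (1298 to 1420) in Ptbp1-KO, 2.45-fold and 2.51-fold above BC at 548 and 540 CPM. Rods had 402 and 364 CPM, MG 365 and 428 CPM, and AC 139 and 106 CPM, and rods and MG changed places between the libraries. At 1000 UMIs per cell, 71.6% and 74.4% of cones had an Slc1a2 UMI, against 27.6% and 33.1% of MG and 31.6% and 29.4% of rods. Unthinned shares were 91.1% in cones of both libraries and 61.9% and 73.4% in MG. Among BC it was highest in cluster 21, at 1050 and 1032 CPM, and between 423 and 707 CPM in the other BC clusters. Cluster 21 also held the cone marker Arr3, at 3921 and 4030 CPM against 7101 and 8371 CPM in cones. The part of cone RNA in its Slc1a2 level was not tested.

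Slc1a7, on chromosome 4 from 107968332 to 108013532, stood at 138 and 132 CPM in cones, 126 and 115 CPM in rods and 125 and 131 CPM in BC, and cones did not differ from BC beyond counting error in Ptbp1-KO. AC had 31.7 and 30.1 CPM and MG the least, 23.9 and 18.3 CPM. The BC clusters differed among themselves more than the types did. Clusters 13, 18 and 10 had 284 and 323 CPM, 240 and 245 CPM, and 200 and 222 CPM, whereas clusters 11, 12 and 19 had 11.5 to 35.9 CPM.

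Slc38a3 and Slc16a1 were found in both MG and photoreceptors. In Ptbp1-KO, rods had 59.9% (56.0 to 64.1) of the MG level of Slc38a3. Cones had 55.5% (46.9 to 65.3) of the MG level of Slc16a1 in that library. Slc38a3 (chromosome 9, 107650634 to 107669530) had 253 CPM (241 to 267) and 267 CPM (253 to 281) in MG, 222 and 160 CPM in rods, 214 and 199 CPM in cones, 187 and 145 CPM in BC, and 68.5 and 40.4 CPM in AC. The excess of MG over the next type was 1.14-fold (1.07 to 1.22) over rods in Ptbp1-Ctrl and 1.34-fold (1.18 to 1.53) over cones in Ptbp1-KO. Slc16a1 (chromosome 3, 104638668 to 104658462) had 196 and 214 CPM in MG and 194 and 173 CPM in rods, which did not differ in Ptbp1-Ctrl (1.01-fold, 0.940 to 1.08). Cones had 150 and 119 CPM, and BC and AC between 33.7 and 40.4 CPM.

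Slc6a6 (chromosome 6, 91684053 to 91759066) was lowest in MG, the type of the list's label. Rods had 1642 and 1585 CPM, cones 1632 and 1566 CPM, BC 1185 and 1241 CPM, AC 502 and 439 CPM, and MG 401 CPM (385 to 418) and 354 CPM (338 to 371). Rods and cones did not differ beyond counting error in either library. Within BC, cluster 12 stood out with 2186 and 2178 CPM. Slc4a4 (chromosome 5, 88886818 to 89239653) was a gene of 2 BC clusters. Cluster 5 had 284 and 249 CPM and cluster 10 had 260 and 236 CPM, against 0 to 18.5 CPM in every other BC cluster and 14.2 and 18.1 CPM in MG. Gpt2 (chromosome 8, 85492576 to 85527560) had between 2.29 and 8.55 CPM in the 5 types, on 4 to 78 UMIs, and no difference between BC, AC and MG was detectable at this depth.

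**Figure D3:**
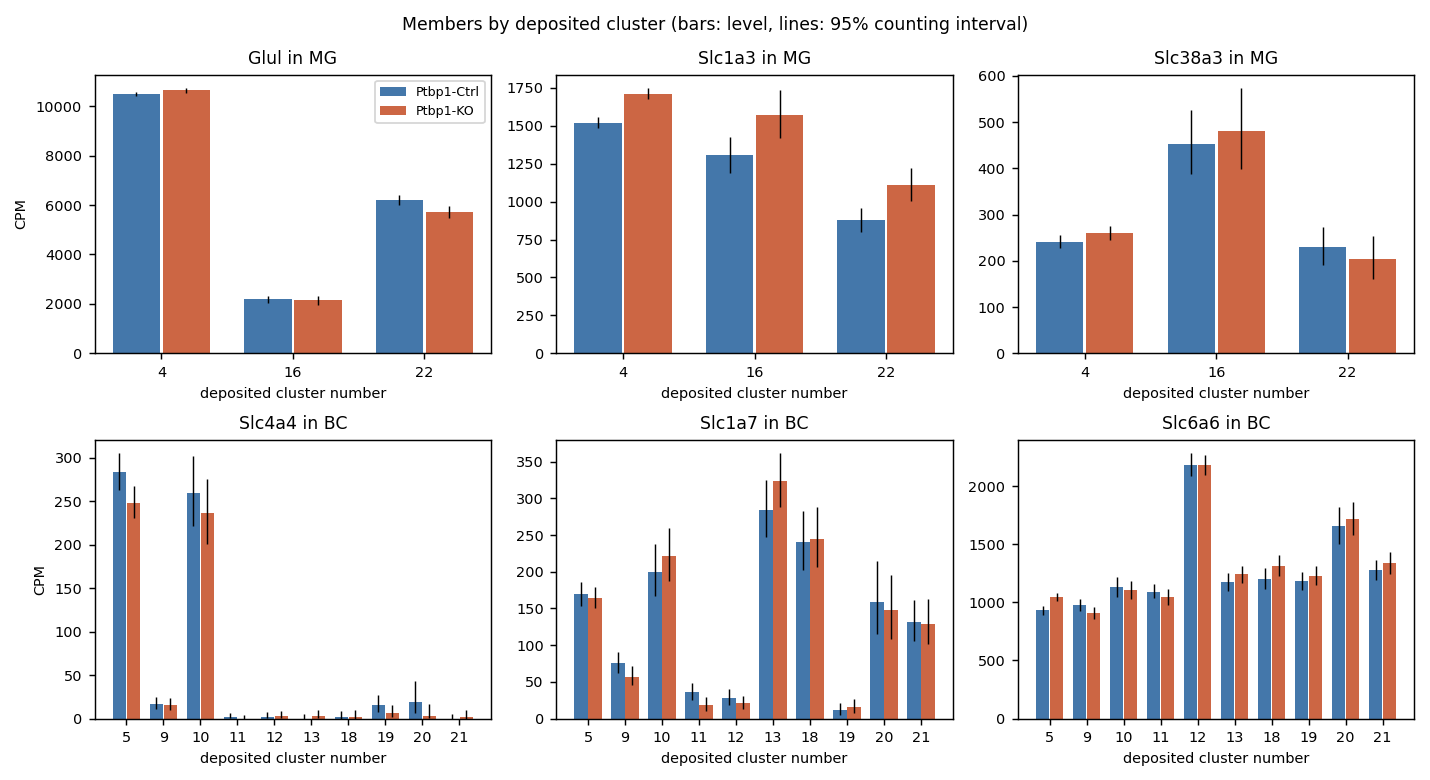
Level (vertical axis, CPM from 0, bars with 95% Poisson intervals) of Glul, Slc1a3 and Slc38a3 in the 3 deposited MG clusters and of Slc4a4, Slc1a7 and Slc6a6 in the 10 BC clusters (horizontal axis, cluster number), per library. Glul was lowest and Slc38a3 highest in MG cluster 16, and Slc4a4 reached 236 CPM or more in BC clusters 5 and 10 and at most 18.5 CPM in the other BC clusters.

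The MG themselves were not uniform in these genes. Clusters 4, 16 and 22 held 1386, 245 and 89 Ptbp1-Ctrl MG and 994, 136 and 54 Ptbp1-KO MG. Cells of cluster 16 were shallow, with a median of 1314 and 1715 UMIs against 3475 and 4351 in cluster 4, and cells of cluster 22 were deep, with 6076 and 7127. Glul fell from 10506 CPM in cluster 4 to 2177 CPM in cluster 16 in Ptbp1-Ctrl, 4.83-fold, and from 10652 to 2145 CPM in Ptbp1-KO, 4.97-fold. Rlbp1, a retinoid-binding MG marker, was lower there too (472 and 310 CPM against 2064 and 2078), while Apoe stood at 8327 and 9962 CPM there against 8774 and 9160 CPM in cluster 4. Several Slc genes did otherwise in cluster 16. Slc4a4 was 43.2 and 59.6 CPM there against 9.98 and 13.2 CPM in cluster 4. Slc1a7 was 40.5 and 31.8 CPM against 19.0 and 13.0 CPM, both genes on 8 to 16 UMIs per library in cluster 16. Slc1a3 was 1306 and 1573 CPM against 1521 and 1712 CPM, Slc38a3 was 453 and 481 CPM against 241 and 260 CPM, and Slc6a6 was 593 and 512 CPM against 355 and 315 CPM. Cluster 22 had less Glul (6205 and 5725 CPM) and Slc1a3 (876 and 1108 CPM) and more Slc1a2 (567 and 648 CPM) and Slc6a6 (706 and 720 CPM) than cluster 4. Markers of BC and cones were higher in cluster 22 too, with Trpm1 of ON BC at 752 and 862 CPM against 15.8 and 22.2 CPM, Prkca of rod BC at 1084 and 1708 CPM against 147 and 129.8 CPM, and Arr3 of cones at 542 and 1208 CPM against 14.2 and 9.86 CPM. Their part in the levels of cluster 22 was not tested. These clusters were made from the same cells and genes, so their differences are a description and no test.

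The comparison between genotypes concerned MG first. In MG, 4 of the 10 genes were higher in Ptbp1-KO beyond counting error and 1 was lower, and the other 5 were within it. Over the 4205 genes of MG with a mean of at least 50 CPM and 50 UMIs, 17.5% were higher and 22.5% lower by the same rule, and of the 6 members that met that minimum 4 were higher and 1 lower. The median log2 ratio of the 10 members was 0.08. It was 0.00 over the 14013 genes with at least 20 UMIs over both libraries, a minimum that all 10 members met. Over the 4205 genes tested at the higher minimum it was −0.02.

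Glul was higher in Ptbp1-KO MG by a log2 ratio of 0.04 (0.02 to 0.06), a 1.03-fold difference, and with cells thinned to 1000 UMIs it was 0.01 (−0.03 to 0.04). By cluster the sign was not alike. The Glul ratio was 0.020 (0.002 to 0.038) in cluster 4, −0.02 (−0.18 to 0.14) in cluster 16 and −0.12 (−0.20 to −0.04) in cluster 22. The ratio of Slc1a3 was 0.20 (0.15 to 0.24), with 0.17 (0.12 to 0.22) in cluster 4, 0.27 (0.07 to 0.46) in cluster 16 and 0.34 (0.14 to 0.53) in cluster 22. For Slc1a2 it was 0.23 (0.14 to 0.32), from 365 to 428 CPM. Slc16a1 was at the edge, with 0.12 (0.00 to 0.25), and the interval held 0 under TMM scaling and with mitochondrial genes left out of the totals.

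Slc6a6 was the member lower in Ptbp1-KO MG, by a log2 ratio of −0.18 (−0.27 to −0.09). Rod RNA, in which Slc6a6 is high, was lower in the same MG (14.1% against 16.1% of the rod level), and with that share subtracted the ratio was −0.07 (−0.22 to 0.08). Thinned to 1000 UMIs it was −0.10 (−0.29 to 0.09). The ratio of Slc1a7, on 141 and 93 UMIs, was −0.38 (−0.78 to 0.00), and its interval lay below 0 without the 10% most mixed cells (−0.56, −1.02 to −0.11) and with thinned cells (−2.28, −3.56 to −1.20). Rods held 529% of the MG level of Slc1a7 in Ptbp1-Ctrl and 627% in Ptbp1-KO. With rod RNA subtracted, no member was lower in MG beyond counting error. The part of rod RNA in the Slc1a7 ratio was not tested. Slc38a3 (0.07, −0.03 to 0.18), Slc4a4 (0.35, −0.10 to 0.79), Gpt2 (0.08, −0.69 to 0.84) and Phgdh (−0.10, −0.48 to 0.27) showed no difference detectable at this depth.

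**Figure D4:**
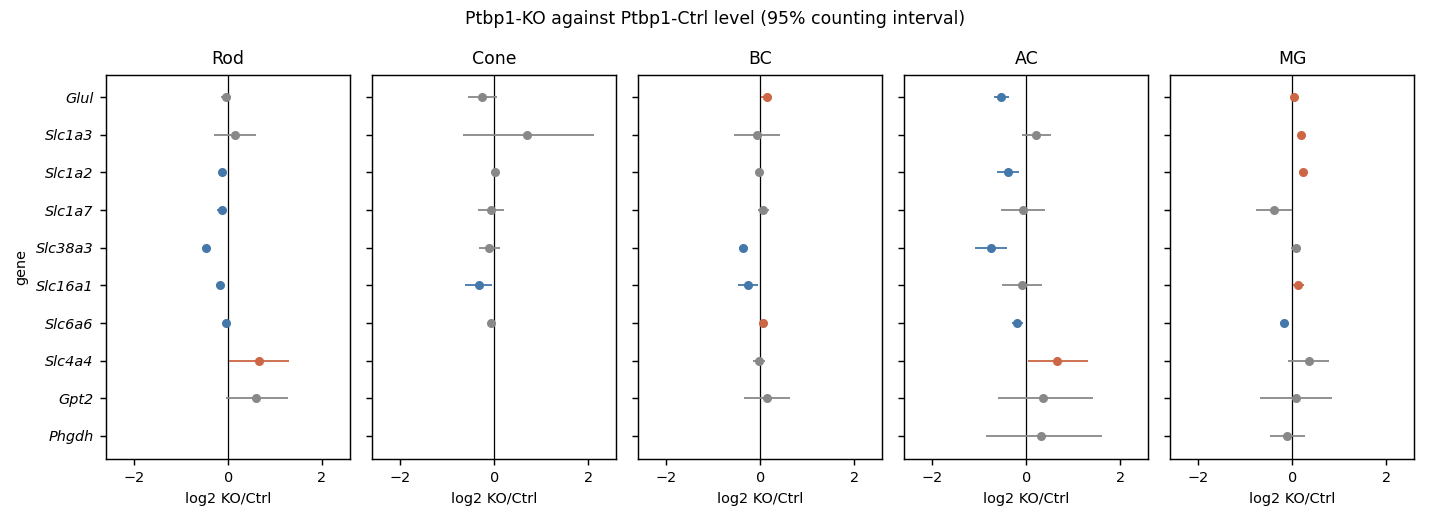
Log2 ratio of the Ptbp1-KO over the Ptbp1-Ctrl level (horizontal axis) of the 10 genes (vertical axis) in 5 cell types, with 95% intervals, for genes with at least 20 UMIs over both libraries. Orange points lie above 0 and blue points below 0 beyond counting error, and grey points lie within it. Slc38a3 was lower in rods, BC and AC, and near 0 in MG.

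In rods 5 of the 9 members with at least 20 UMIs over both libraries were lower in Ptbp1-KO and 1 was higher. At the minimum of 50 CPM, 5 of 6 members were lower and 0 higher in rods. Of all rod genes tested at that minimum, 25.2% were lower and 25% higher. With 20 UMIs, 2 of 9 members were lower and 2 higher in BC, and 4 of 10 lower and 1 higher in AC. With 50 CPM, 1 of 6 was lower and 2 higher in BC, against 20.1% and 17.9% of genes tested. In AC 4 of 5 were lower and 0 higher, against 11.3% and 11.2%. The members' median log2 ratio was −0.05 in rods, −0.02 in BC and −0.09 in AC. In rods their mean, 0.04, had the other sign.

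Slc38a3 had the largest decreases of the list in rods, BC and AC. It was lower in Ptbp1-KO in rods by 0.47 on the log2 scale (0.39 to 0.55), in BC by 0.36 (0.26 to 0.46) and in AC by 0.76 (0.42 to 1.10). In cones (−0.11, −0.33 to 0.12) and MG no difference was detectable. The ratio was below 0 in each of the 10 BC clusters, from −0.07 in cluster 11 to −0.52 in cluster 12, and beyond counting error in clusters 5, 10, 12 and 13. Within AC the ratio was −1.31 (−1.76 to −0.86) in cluster 6. It was −0.07 (−0.87 to 0.75) in cluster 14 and −0.12 (−0.92 to 0.73) in cluster 15, on 20 to 41 UMIs per library. The difference between these clusters was not tested. With cells thinned to 1000 UMIs the AC ratio was −0.29 (−0.97 to 0.39).

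Slc16a1 was lower in rods by 0.17 (0.09 to 0.25), in cones by 0.34 (0.05 to 0.62) and in BC by 0.26 (0.05 to 0.47), and 10.8% of the genes tested were lower in cones. It was the only member that differed in cones, where 8.91% of genes tested were higher and no member was. Slc1a2 and Slc1a7 were each lower in rods by 0.14, and Slc6a6 by 0.05 (0.02 to 0.08). In AC, Slc1a2 was lower by 0.39 (0.16 to 0.62) and Slc6a6 by 0.20 (0.08 to 0.31). Glul in AC was lower by 0.53 (0.36 to 0.70), from 261 to 181 CPM, and the sign of that value turned to 0.10 (−0.18 to 0.40) without the 10% of AC with most MG marker UMIs. In BC, where 17.9% of genes tested were higher, Glul (0.14, 0.02 to 0.26) and Slc6a6 (0.07, 0.03 to 0.10) were higher. The Glul ratio was not alike over BC clusters, at 0.48 (0.26 to 0.71) in cluster 5 and −1.01 (−1.58 to −0.46) in cluster 10. Slc4a4 was higher in rods (0.65, 0.03 to 1.29) and in AC (0.65, 0.04 to 1.31), on 29 to 90 UMIs per library. The libraries also differed in the AC they held, with 293, 223 and 160 control AC and 478, 214 and 253 knockout AC in clusters 6, 14 and 15. By these clusters the Glul ratio was −0.38 (−0.68 to −0.08), −0.44 (−0.66 to −0.22) and 0.48 (−0.17 to 1.18). For Slc1a2 it was −0.43, −0.42 and −0.56, with an interval that held 0 in cluster 14. For Slc6a6 it was −0.33 (−0.49 to −0.16), −0.06 and −0.03, the last pair within counting error. Slc4a4 had 26 of its 29 control and 80 of its 90 knockout AC UMIs in cluster 6. Its ratio there was 0.45 (−0.21 to 1.15), within counting error. The changes in AC are given beside their depth, since the median depth of an AC was 2600.5 UMIs in the control and 3928 in the knockout library. The part of depth in them was not tested.

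The wider pathway was described with 46 further genes in 6 groups, chosen with earlier results of these data known. In MG 40 of them had at least 20 UMIs over both libraries, of which 14 were higher, 6 lower and 20 within counting error, beside 11.7% higher and 11.5% lower among 14013 genes with that minimum. Their median log2 ratio was 0.10, against 0.00 over those genes. The largest difference among the 40, and larger than that of any member in MG, was Slc7a11, the cystine and glutamate exchanger that takes up cystine against glutamate for glutathione synthesis. Its MG level was 11.9 CPM (70 UMIs) in Ptbp1-Ctrl and 81.4 CPM (414 UMIs) in Ptbp1-KO, which is 6.87-fold and on the log2 scale 2.78 (2.41 to 3.17). The difference was present in each MG cluster, at 2.83 in cluster 4, 2.71 in cluster 16 and 2.07 in cluster 22, and it ranged from 2.69 to 2.85 under the alternatives. At 1000 UMIs per cell 1.20% of Ptbp1-Ctrl MG (0.736 to 1.85) and 6.82% of Ptbp1-KO MG (5.45 to 8.42) had a Slc7a11 UMI, against 0.440% and 0.615% of rods. Unthinned, 3.78% and 24.9% of MG had one. In rods, BC and AC its log2 ratio was 0.48, −0.10 and −0.98, each with an interval that held 0.

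Slc3a2, the heavy chain with which Slc7a11 and Slc7a5 form their transporters, went from 177 to 288 CPM in MG (0.70, 0.58 to 0.81). Slc7a5, a carrier of large neutral amino acids, went from 21.7 to 32.6 CPM (0.59, 0.25 to 0.93), and Slc38a2 (SNAT2), a carrier of small neutral ones, from 76.0 to 107 CPM (0.50, 0.31 to 0.68). Of the 7 carriers with enough UMIs, these 4 were higher and none lower. Slc38a2 was higher in rods (0.47), BC (0.38) and AC (0.35) as well, and Slc3a2 in rods (0.17). The 250 bases before the start of Slc7a11 are shown because it had the largest difference among the members and the related genes in MG. Capitals mark the letters TGATGNAA or TTNCATCA, the core of the amino acid response element, as well as the CCAAT box and the SOX core described above.
Slc7a11, chr3:50443614-50443863, minus strand: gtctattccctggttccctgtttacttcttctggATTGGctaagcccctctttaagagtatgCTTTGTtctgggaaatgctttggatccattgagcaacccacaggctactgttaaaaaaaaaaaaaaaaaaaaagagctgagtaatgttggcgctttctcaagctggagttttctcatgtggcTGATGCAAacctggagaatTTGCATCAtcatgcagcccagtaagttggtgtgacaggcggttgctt
The element core occurred there 2 times, on opposite strands, 66 and 47 bases before the start. It was in 3.45% of the 32851 promoters, in 2 of the 32 related genes that had a promoter entry (Slc7a11 and Got1), and in none of the 8 members with one. Got1 in MG was 40.1 and 33.6 CPM.

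**Figure D5:**
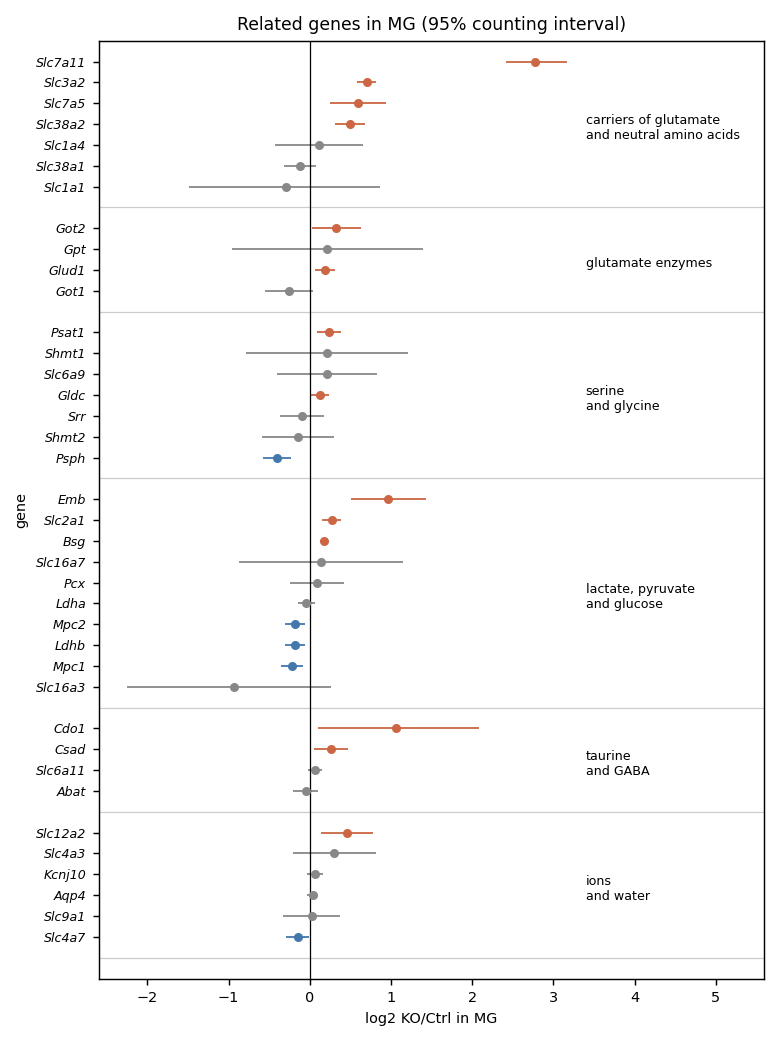
Log2 ratio of the Ptbp1-KO over the Ptbp1-Ctrl MG level (horizontal axis, 95% interval) of 38 of the 40 related genes with at least 20 UMIs (vertical axis), grouped by role. Orange and blue mark genes higher and lower beyond counting error, and Slc7a11 lies at 2.78, beyond every other gene shown.

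Among glutamate enzymes, Glud1 (0.19) and Got2 (0.32) were higher in Ptbp1-KO MG. In serine and glycine metabolism, Psat1, the step after Phgdh, went from 125 to 148 CPM (0.24, 0.09 to 0.39) and Psph, the last step, from 113 to 85.7 CPM (−0.40, −0.58 to −0.23), so that 2 neighbouring steps differed in opposite directions while Phgdh itself did not differ detectably. The other genes of this group included Gldc (0.12, higher). Of the lactate, pyruvate and glucose genes, Bsg and Emb, whose proteins bring monocarboxylate transporters such as Slc16a1 to the membrane, were higher (0.17, 0.13 to 0.21, and 0.97, 0.51 to 1.43), as was the glucose transporter Slc2a1 (0.27). Ldhb (−0.18), Mpc1 (−0.22) and Mpc2 (−0.18), the lactate dehydrogenase subunit and the mitochondrial pyruvate carrier, were lower. Bsg was lower in rods (−0.31) and cones (−0.30), the reverse of its MG sign. In the taurine and GABA group, Csad and Cdo1, which make taurine, were higher (0.26, and 1.06 on 15 and 27 UMIs), and the GABA transporter Slc6a11 was within counting error (0.06, −0.02 to 0.15). Of the ion and water genes, Slc12a2 was higher (0.46) and Slc4a7 lower (−0.15), and Aqp4 and Kcnj10, the water and potassium channels of MG endfeet, had log2 ratios of 0.03 (−0.03 to 0.10) and 0.07 (−0.03 to 0.17).

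Genes with the most similar pattern were found by the correlation of log2(CPM + 1) over the 10 sums of 5 cell types and 2 libraries, which share libraries and depth, so that r describes and no p is given. For Glul these were Gpx8 (r = 0.998), Cyp2d22 and Acadl, each between 76.7 and 114 CPM in MG and at most 3.58 CPM elsewhere. For Slc1a3 they were Folr1 (0.997), Gm47371 and Fstl1, and for Phgdh Xpr1 (0.997), Bcl6 and Atp1b3. Slc1a2 was closest to mt-Nd5 (0.978), Btc and Atp1b2, Slc1a7 to Rapgef5 (0.997), Csnk1g1 and Antxr2, and Slc6a6 to D16Ertd472e (0.995), Smim40 and Fyco1. Slc16a1 was closest to Tex261 (0.989), Wasf3 and Add3, Slc4a4 to Ano3 (0.994), C130073E24Rik and Gm20754, and Gpt2 to Plcb1 (0.992), Chd4 and Chic1. The least alike were the partners of Slc38a3, namely Sdc4 (0.943), Hist1h2bc and Stxbp3. Among the members themselves the closest pair was Slc1a3 and Phgdh (0.985), followed by Slc1a7 and Slc6a6 (0.983) and Glul and Slc1a3 (0.956).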

How the data were processed

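Per the labels and the study's methods, the authors prepared 10x Genomics 3′ version 3.1 libraries from papain-dissociated retina, aligned reads to mm10 with Cell Ranger 7.0.1 and filtered and clustered cells in Seurat 4. Whether intronic reads were counted, and the gene annotation, were not given in the sources used here. The deposited count table holds raw UMI counts per gene and cell, not normalized, and the deposited cell table holds total counts, genes, percent of mitochondrial UMIs and other columns (sample, cluster and cell type names). Another 2 columns of that table were not used. All 30943 cells met the stated filter (genes above 200 and below 5000, UMIs above 700 and below 10000, under 20% mitochondrial).

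UMIs were summed per library and cell type (CPM), with exact intervals at 95%. Each type compared had at least 1000000 UMIs per library, which left out ganglion and horizontal cells. The study tested cells by rank sums. Its test is left out because the cells come from a single animal per genotype, and no p-value is printed. A gene had a ratio in list counts with 20 UMIs and in the background with 50 CPM and 50 UMIs. No doublet caller was run. Alternatives were edgeR 4.0.16 TMM factors, totals without mitochondrial genes, thinning to 1000 UMIs, the mean of per-cell CPM, leaving out the 10% most mixed cells, subtracting rod RNA, and 1 MG cluster alone. Scripts (Python 3.11.15, R 4.3.3) were tested on simulated data. Named genes were the members, 46 related genes, markers, and for each member the 3 genes of most similar pattern. Members, lists, motifs and rules were chosen with earlier results of these data known. Gene positions are from GENCODE M21 on GRCm38, which is mm10. Some genes counted in the lists are not reported here by name.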

Additional observations from a re-analysis of the deposited data

Results flagged for a closer look

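For 4 genes the log2 ratio of Ptbp1-KO over Ptbp1-Ctrl lay above 0 beyond counting error in one cell type and below 0 in another, with 1 library per genotype, so the difference between the types was not tested. For Glul, BC minus AC was 0.67, from 0.14 in BC and −0.53 in AC. For Slc1a2, MG minus AC was 0.62, from 0.23 and −0.39. For Slc16a1, MG minus cones was 0.46, from 0.12 and −0.34. For Slc6a6, BC minus AC was 0.26, from 0.07 and −0.20. Of these, the AC value of Glul rested on few cells, since 10 AC with 12 or more Glul UMIs held 64.0% of its UMIs in Ptbp1-Ctrl and 10 held 44.6% in Ptbp1-KO. In BC, 3 such cells held 4.37% in Ptbp1-Ctrl and 9 held 10.0% in Ptbp1-KO. The BC ratio of Glul ranged from 0.05 to 0.18 under the alternatives. The part of these cells in the BC ratio was not tested.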

How the results depend on the processing

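The median log2 ratio of the 10 genes in MG, 0.08, lay between 0.06 and 0.11 under every alternative but thinning, where it was 0.21. The 4 members higher in MG were 3 to 5 under the alternatives. The 1 lower member became 2 with TMM scaling, without the mitochondrial genes, without the 10% most mixed cells and in the largest MG cluster alone, and 0 with rod RNA subtracted, and the means of per-cell CPM carry no interval, so these counts were not made under them. The 5 members highest in MG in both libraries became 4, without Slc16a1, with TMM scaling, with thinning and without the 10% most mixed cells, and 3, without Slc38a3 as well, with rod RNA subtracted. The ratio of Glul in AC, −0.53, turned to 0.10 without the 10% of AC with most MG marker UMIs, an alternative added after the data were seen. Of 318 alternative log2 ratios of single genes, 19 had the other sign, of which 18 belonged to ratios within counting error and 1, Glul in AC, to a ratio beyond it. No paired analysis was possible because each genotype had 1 library. Depth limits Gpt2, Phgdh and Slc4a4 outside their highest types, and with 1 animal per genotype, genotype and library cannot be told apart.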
